A study of Sus scrofa with 48 samples.

Results

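The genes described here are the antizymes and the enzymes of polyamine metabolism in the longissimus muscle of pigs. They are 10 genes, OAZ1, OAZ2, OAZ3, AZIN1, ODC1, AMD1, SRM, SMS, SAT1 and SMOX. A probe was taken for a gene when the array's own gene name, or the symbol in brackets in its description, was that gene, and it was kept when 12 or more of the 48 arrays had it well above background by the scanner software. The array held 35 such probes and 34 were kept, of 42125 kept among all 60305 probes. The probe left out was O9162 of SMS, which was well above background on 3 arrays.

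The 48 pigs were Large White barrows, and each gave RNA for its own array. They came from a low RFI line (the labels' RFIneg) and a high RFI line (RFIpl), selected in opposite directions for residual feed intake, the feed an animal eats beyond what its growth and maintenance predict. Pigs of each line received a low fat, low fiber diet (LF) or a high fat, high fiber diet (HF), with 12 pigs in each of the 4 groups. A line is one selected population, so whatever else separates the populations is part of the line difference, and the labels do not say which pigs shared parents. OAZ3 was chosen with its line difference in view, so that difference is described without a test. Tests were kept for its response to diet and for the other genes. The other members and the gene lists used below were also chosen with earlier results of these data known. Their line tests do not allow for that choice.

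Polyamines (putrescine, spermidine and spermine) are small cations that bind nucleic acids and are needed for growth and protein synthesis. Ornithine decarboxylase, the product of ODC1, makes putrescine from ornithine. Antizymes bind this enzyme and lower the uptake of polyamines, and the product of OAZ1 sends the enzyme to the proteasome without ubiquitin. Antizymes are made through a ribosomal frameshift that polyamines themselves favour. OAZ1 and OAZ2 are expressed in most tissues, whereas OAZ3 is known as the antizyme of the testis, where haploid germ cells express it. The antizyme inhibitor AZIN1 resembles ornithine decarboxylase without its activity and draws antizyme away from it.

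Array intensities overlapped between the groups. Their median intensity ran from 52.8 to 107.9, 59.2% to 74.2% of probes stood well above background, and saturation was seen on 0 spots. Both highest values belonged to the same array, that of replicate 10 of the HF pigs of the high RFI line. The next highest median intensity was 82.2. Each of the 6 slides carried 2 pigs of every group, so slide and group were not confounded. Levels are log2 intensities minus the mean of the same array, so a level of 0 is the average kept probe, and levels of different probes are not compared.

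The sequences of the OAZ3 probes come first, because the probes of this gene gave differences of very unequal size. The array's annotation places A_72_P619999 at base 88 of its transcript and A_72_P437459 at base 451. O3277 has the same 60 bases as A_72_P437459, so these 2 are repeated measures of a single sequence. A probe of OAZ1 and a probe of OAZ2 are printed beside them, since the 3 antizymes are relatives that a probe could confuse. All are 5′ to 3′.
A_72_P619999 (OAZ3): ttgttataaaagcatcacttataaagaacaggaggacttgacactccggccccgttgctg
A_72_P437459 and O3277 (OAZ3): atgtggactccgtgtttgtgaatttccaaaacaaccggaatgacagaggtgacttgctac
A_72_P561364 (OAZ1): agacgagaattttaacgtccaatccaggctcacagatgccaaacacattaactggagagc
A_72_P441873 (OAZ2): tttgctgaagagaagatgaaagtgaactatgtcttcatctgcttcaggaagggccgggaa

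The longest run of identical bases between an OAZ3 sequence and any kept probe of OAZ1 or OAZ2 was 4 to 6 bases.

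OAZ3 was near background in most low RFI pigs and well above it in most high RFI pigs at the shared sequence. At A_72_P437459 the levels of LF pigs of the low RFI line ran from -6.30 through a median of -5.79 to -1.69, and those of LF pigs of the high RFI line from -5.64 through -1.37 to -0.96. On the HF diet they ran from -6.77 through -5.88 to -1.85 in the low RFI line and from -6.79 through -1.31 to -0.55 in the high RFI line. The ranges overlapped on both diets because a minority of pigs of each line lay with the other line.

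The pigs fell at 2 separate heights with nothing between them at this probe. The 8 low RFI pigs that were well above background lay from -2.47 to -1.69 and the other 16 from -6.77 to -5.38. The 22 high RFI pigs that were well above background lay from -2.56 to -0.55 and the other 2 at -6.79 and -5.64. No low RFI pig reached the level of 14 of the 24 high RFI pigs. Before the log and the centring, the median intensity was 5.29 in the low RFI line and 132 in the high RFI line.

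By whether they were well above background, the twin probe O3277 placed the same pigs on the same side, apart from 2. Its levels left no gap between the sides. In low RFI pigs the lowest level well above background was -4.47, and the highest that was not was -3.76. Both probes were well above background in 22 of 24 high RFI pigs and in 8 of 24 low RFI pigs, and neither was in 2 and 14 pigs, respectively. The remaining 2 low RFI pigs, 1 on each diet, passed at O3277 only. The counts were the same on both diets, with 11 of 12 high RFI pigs and 4 of 12 low RFI pigs passing at both probes.

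**Figure D1:**
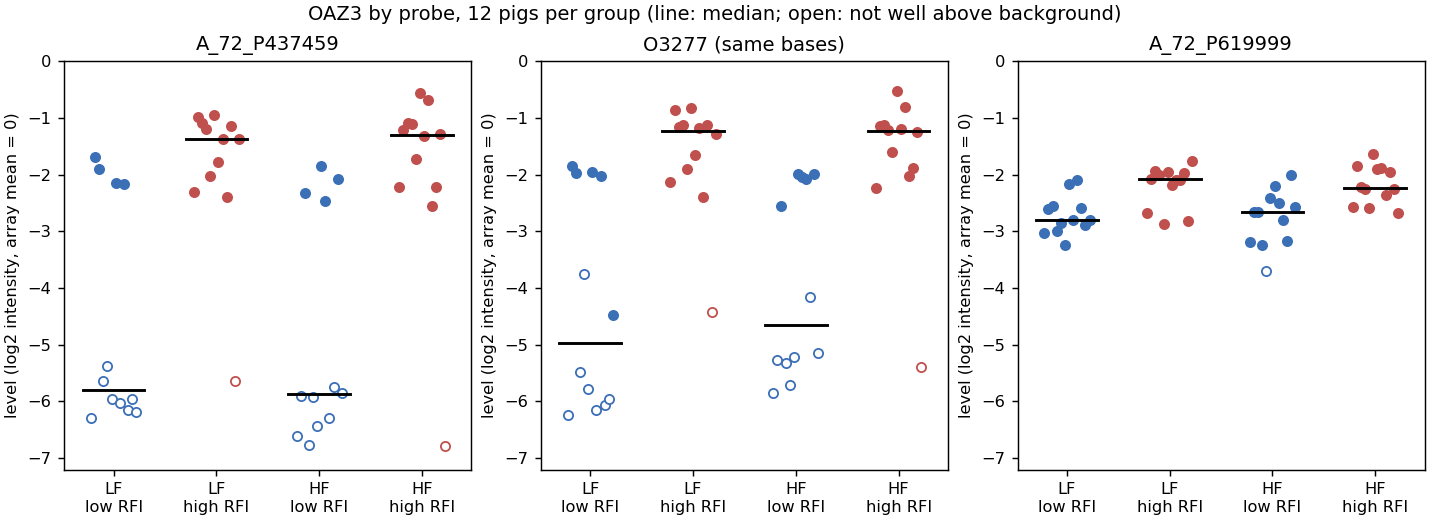
OAZ3 level (y axis, log2 intensity with the array mean at 0) of each pig at the 3 probes, by diet and line (x axis), with 12 pigs per group; filled points were well above background, open points were not, and the black line is the median. At the shared sequence of A_72_P437459 and O3277 most low RFI pigs are open points near the bottom and 11 of 12 high RFI pigs on each diet are filled points near the top, whereas A_72_P619999 was above background in 47 of 48 pigs and shows a smaller shift.

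The mean difference, high minus low RFI line, was 2.86 (SE 0.49) on the log2 scale at A_72_P437459 and 2.44 (SE 0.42) at O3277. Corresponding values were 2.77 on LF and 2.95 on HF at A_72_P437459, and 2.64 and 2.24 at O3277. These means mix pigs at background with pigs above it, so their size rests on how background was treated. After a normexp background correction, a model that keeps dim spots above zero, with an offset of 50, the differences were 0.94 and 0.76.

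At A_72_P619999 the line difference was 0.55 (SE 0.11), a 1.46-fold difference. Levels ran from -3.70 through a median of -2.73 to -2.01 in low RFI pigs and from -2.88 through -2.09 to -1.64 in high RFI pigs, so the lines overlapped, with 10 high RFI pigs higher than every low RFI pig and 8 low RFI pigs below every high RFI pig. The difference was 0.51 on LF and 0.58 on HF. It was 0.23 after the normexp correction and 0.30 in the deposited log2 table, where O3277 stood at 1.17. All 3 probes had the higher mean in the high RFI line on each of the 6 slides, by 1.25 to 4.60 at A_72_P437459, 1.31 to 3.90 at O3277 and 0.19 to 0.78 at A_72_P619999. By scan day, A_72_P437459 differed by 2.03 and 3.69, and A_72_P619999 by 0.39 and 0.71.

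Within groups, the OAZ3 probes ordered the pigs alike. After the group mean was subtracted, Spearman's rho over the 48 pigs was 0.89 between the twin probes, and 0.66 and 0.67 between each of them and A_72_P619999. These correlations are descriptions, since the probes share arrays and transcript.

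Diet made no difference to OAZ3 that passed the test. Over all probes, 0.42% differed between diets at an adjusted p under 0.05 (limma, Benjamini-Hochberg over the 42125 probes), and none of the 34 probes described here did. HF minus LF was -0.14 (95% interval -1.13 to 0.85, adjusted p = 0.95) at A_72_P437459 and 0.17 (-0.67 to 1.01, adjusted p = 0.92) at O3277. At A_72_P619999 it was -0.01 (SE 0.11, adjusted p = 0.99). The line difference did not change with diet by more than its error either. The interaction was 0.18 (95% interval -1.80 to 2.17) at A_72_P437459 and 0.07 at A_72_P619999. At O3277 it had the opposite sign, -0.39 (-2.07 to 1.29). The adjusted p was 0.999 at each probe (limma).

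OAZ3 is known from spermatids, so other spermatid genes were read in the same muscles. Of 11 listed genes, 6 had a kept probe. ODF1, which encodes a protein of the sperm tail, was well above background on 0 arrays, and no probe of DDX4, a germ cell helicase, was on more than 8. PRM1 and PRM2, the protamines that pack sperm DNA, had kept probes that were well above background on 43 and 48 arrays, with line differences of -0.04 and -0.01 (adjusted p = 0.85 and 0.97). Of the 8 kept spermatid probes 2 passed the line test (16.4% of all probes did) in opposite directions, 1 of ODF2 at 0.30 and that of SPATA18 at -0.27. The summed level of the 6 genes, on a linear scale, ran from 0.71 to 1.09 in low RFI pigs and from 0.61 to 1.30 in high RFI pigs. The part of other cell types in the OAZ3 result was not tested, and in a piece of muscle fewer cells of a type and less RNA per cell cannot be told apart.

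Genes near OAZ3 in the order of the Sscrofa11.1 annotation, passing over those without a kept probe, moved in both directions between the lines. On one side, 8 and 6 genes away, S100A10, the partner of annexin A2, differed by 0.25 (SE 0.07, adjusted p = 0.0062, limma) and THEM5, an acyl-CoA thioesterase, by -0.01 (adjusted p = 0.94). On the other side, both probes of MRPL9, a protein of the mitochondrial ribosome, were lower in the high RFI line. At A_72_P406268 the MRPL9 levels ran from 4.56 through a median of 4.90 to 5.05 in low RFI pigs and from 4.12 through 4.37 to 4.95 in high RFI pigs.

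The low RFI mean was exceeded by 2 of the 24 high RFI pigs at that MRPL9 probe and by 1 at O9386. The differences were -0.42 (SE 0.06, adjusted p = 8.6e-07) and -0.47 (SE 0.06, adjusted p = 1.0e-06), and both were negative on all 6 slides. The annotated span of MRPL9 overlaps that of OAZ3, and the table of gene positions used here gives no strand. Further out, RIIAD1 differed by -0.13 (SE 0.04, adjusted p = 0.029) and CELF3, an RNA-binding protein, by -0.11 (SE 0.23, adjusted p = 0.77).

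**Figure D2:**
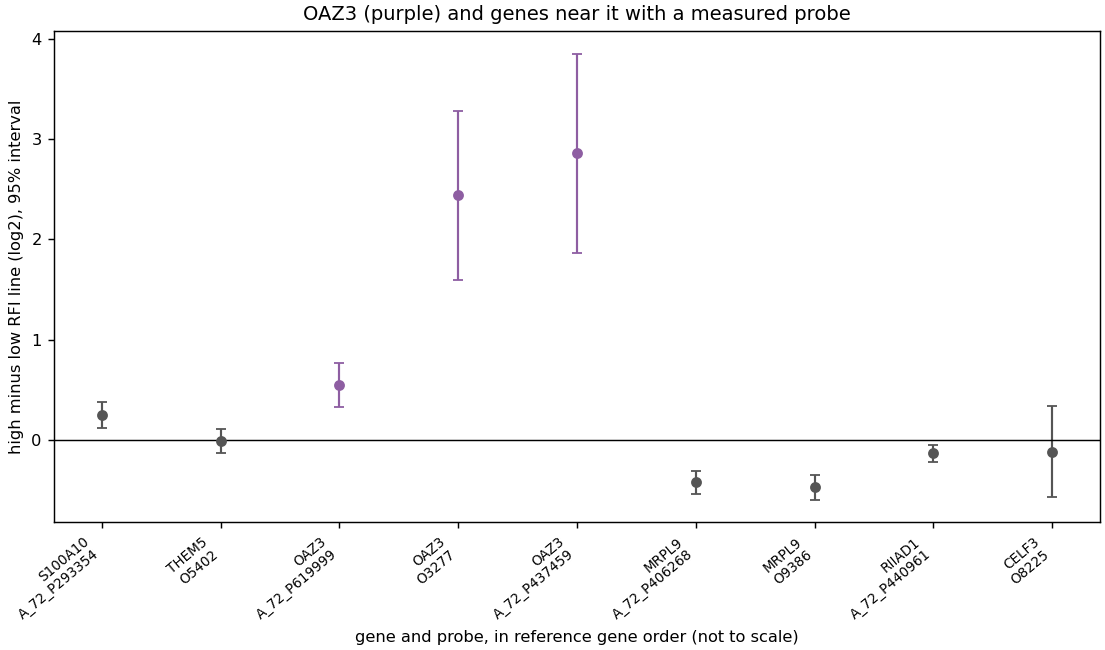
Line difference (y axis, high minus low RFI line, log2, with its 95% interval) of the OAZ3 probes (purple) and of the kept probes of the genes described near it (grey), in gene order along the x axis and not to scale. The OAZ3 probes lie at 0.55, 2.44 and 2.86, S100A10 lies at 0.25, and the MRPL9 probes lie at -0.42 and -0.47.

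The 8 named genes whose levels followed A_72_P619999 most closely within groups were ENPP1 (Spearman's rho 0.62), AVL9 (0.59), DIAPH2 (0.54), MORC4 (0.53) and SH3D19, SAA3, BICRAL and FTO (all 0.52), over 48 pigs. None of the 8 passed the line test, with adjusted p from 0.095 for ENPP1 to 0.88 for DIAPH2. Across the same pigs, rho with the 31 probes of the other members ran from -0.33 to 0.21.

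A probe with no gene name, A_72_P008606, ranked first of the 41954 probes outside OAZ3 measured in every pig by its likeness to A_72_P437459, with rho 0.86. It was picked out after its values were seen. It was well above background in 21 of 24 high RFI pigs and 8 of 24 low RFI pigs, with medians of -2.92 and -5.81. Like the twin OAZ3 probes, it was kept mainly through the high RFI line. Its line difference was 1.89 (SE 0.35).

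No probe of the other antizymes or of the antizyme inhibitor passed the line test. OAZ1 was measured by 6 probes, which differed by -0.01 to 0.03 (SE 0.04 to 0.06, adjusted p from 0.69 to 0.999). At A_72_P628552, the OAZ1 probe with the highest mean level, low RFI pigs ran from 8.55 through a median of 8.77 to 8.88 and high RFI pigs from 8.24 through 8.73 to 8.98, and the 95% interval of the difference was -0.08 to 0.07. The SD between pigs at this probe was 0.09 in the low and 0.15 in the high RFI line, and at O502 of OAZ1 it was 0.15 and 0.25. The level of 8.24 at A_72_P628552 came from replicate 10 of the HF pigs, whose array had the highest median intensity. The next lowest high RFI pig lay at 8.52. Under quantile normalization A_72_P628552 was called higher in the high RFI line, by 0.11 (adjusted p = 0.027).

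OAZ2 was measured by 3 probes, with differences of 0.11 (SE 0.06, adjusted p = 0.21) at A_72_P441873, 0.04 (SE 0.07, adjusted p = 0.75) at O5795 and -0.15 (SE 0.14, adjusted p = 0.51) at A_72_P375978. The last was well above background on 25 arrays. AZIN1, the antizyme inhibitor, was measured by 7 probes of 6 distinct sequences that differed by -0.14 to 0.01, with the lowest adjusted p at 0.21.

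ODC1, which encodes the enzyme that antizymes bind, was higher in the high RFI line. At its kept probe, levels ran from 3.47 through a median of 3.78 to 4.53 in the low RFI line and from 3.55 through 4.05 to 4.48 in the high RFI line on LF. On HF they ran from 3.19 through 3.90 to 4.43 and from 3.58 through 4.20 to 4.60, respectively. The lines overlapped widely, and 22 of 24 high RFI pigs exceeded the low RFI mean.

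The ODC1 difference was 0.29 (SE 0.09, 1.22-fold, adjusted p = 0.022, limma). It was 0.33 on HF and 0.25 on LF, with adjusted p of 0.10 and 0.32 within a diet, and an interaction of 0.08 (adjusted p = 0.999). On 5 of 6 slides it was positive, and on the other it was 0.00. Another probe, A_72_P150791, carries the array name ODC and is matched to the ODC1 transcript by its accession, at base 876, and so lies outside the rule. It is shown because it is a separate reading of ODC1:
A_72_P150791 (ODC1): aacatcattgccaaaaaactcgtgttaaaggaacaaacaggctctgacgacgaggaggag

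At this probe low RFI pigs ran from -0.87 through a median of -0.05 to 0.70 and high RFI pigs from -0.35 through 0.39 to 0.73. Its difference was 0.34 (SE 0.09, adjusted p = 0.0093), and 20 of 24 high RFI pigs exceeded the low RFI mean.

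No probe for the steps from putrescine to spermine passed the line test. AMD1, which makes the aminopropyl donor, differed by 0.04 (SE 0.09, adjusted p = 0.80) at O12458 and -0.04 (SE 0.10, adjusted p = 0.80) at A_72_P248097. SRM, spermidine synthase, differed by -0.08 (SE 0.05, 95% interval -0.19 to 0.03, adjusted p = 0.31). SMS, spermine synthase, differed by 0.02 (SE 0.05, 95% interval -0.08 to 0.13, adjusted p = 0.81).

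SAT1, spermidine/spermine N1-acetyltransferase, which acetylates polyamines for oxidation or export, was higher in the high RFI line at 7 of its 8 probes, where 6.57% of all probes were. Of these, 3 that overlap are shown because agreement between them is partly agreement of the same bases. The capitals mark the 35 bases that all 3 share. They start at bases 419, 440 and 444 of the transcript. A_72_P600768 and A_72_P633056 differ at 1 of the 56 bases of their overlap. Another probe, A_72_P661012 at base 426, overlaps both of these with 2 mismatches. The probe with the highest mean level, A_72_P077626, starts at base 494, and A_72_P565577, at base 241, ends before the others begin.
A_72_P584277 (SAT1): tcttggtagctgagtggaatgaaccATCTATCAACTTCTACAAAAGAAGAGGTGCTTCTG
A_72_P633056 (SAT1): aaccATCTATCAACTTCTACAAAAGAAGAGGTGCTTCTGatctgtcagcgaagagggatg
A_72_P600768 (SAT1): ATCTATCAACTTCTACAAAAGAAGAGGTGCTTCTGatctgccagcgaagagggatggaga
A_72_P077626 (SAT1): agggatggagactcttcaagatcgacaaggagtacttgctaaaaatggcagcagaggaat
A_72_P565577 (SAT1): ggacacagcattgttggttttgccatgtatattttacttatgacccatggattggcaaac

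At A_72_P077626 the LF pigs ran from 0.90 through a median of 1.34 to 1.70 in the low RFI line and from 0.90 through 1.85 to 2.34 in the high RFI line. The HF pigs ran from 0.76 through 1.03 to 1.33 and from 0.87 through 1.45 to 3.22, respectively. The lines overlapped on both diets, 10 high RFI pigs exceeded every low RFI pig, and high RFI pigs were more spread (SD 0.55 against 0.25).

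The SAT1 difference at this probe was 0.50 (SE 0.12, 1.42-fold, adjusted p = 0.0028, limma), with 20 of 24 high RFI pigs above the low RFI mean. The 7 SAT1 probes called differed by 0.40 to 0.52, with adjusted p from 0.0028 to 0.016, and were positive on all 6 slides. O8826, whose place in the transcript the array files do not give, differed by 0.14 (SE 0.06, adjusted p = 0.11) and also had the sign of the others on all 6 slides. With slide as a block it passed (adjusted p = 0.028). The smallest difference among the called probes was that of A_72_P565419, at base 1676, with 0.40 (SE 0.12).

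On HF alone 2 SAT1 probes passed (6.39% of all probes did), and on LF alone 0 of the 31 probes outside OAZ3 passed (2.47% of all probes did), while 7 of them had an unadjusted p under 0.05. At A_72_P077626 the difference was 0.51 on HF and 0.49 on LF, and the interaction was 0.02 (adjusted p = 0.999).

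**Figure D3:**
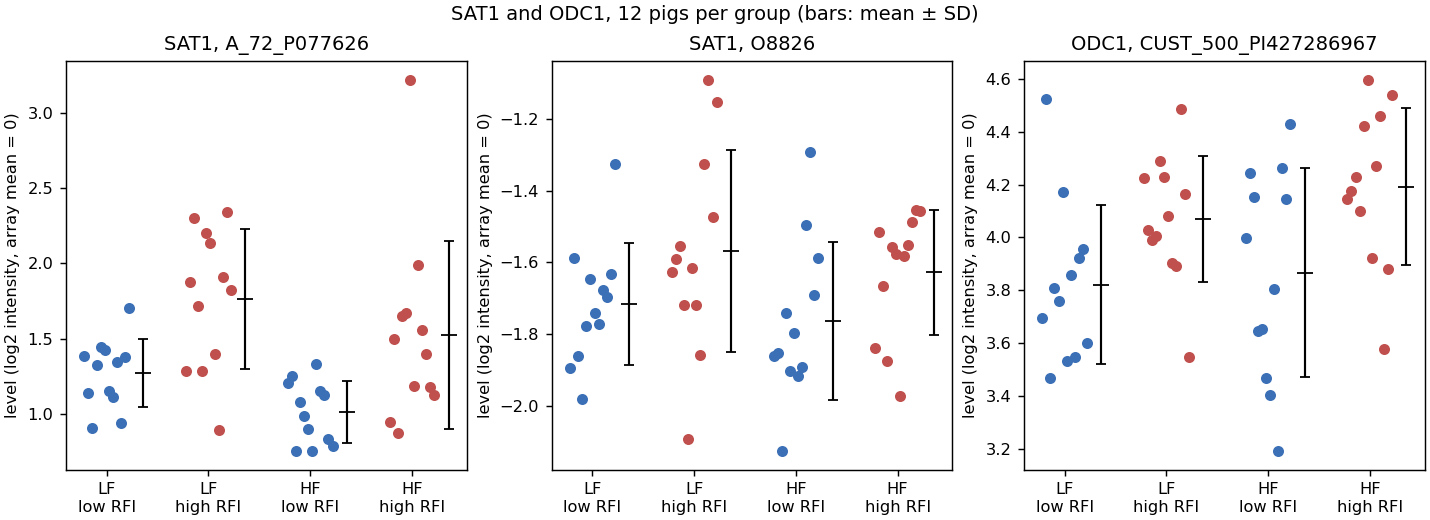
Level (y axis, log2 intensity with the array mean at 0) of each pig at the SAT1 probe with the highest mean level, at SAT1 probe O8826, which passed with slide as a block and not without it, and at the ODC1 probe, by diet and line (x axis), with mean and SD bars over 12 pigs per group. High RFI pigs (red) are shifted up at A_72_P077626 and at ODC1, with overlap in every pair of groups, and 1 HF pig of the high RFI line lies alone at 3.22 for SAT1.

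SMOX, spermine oxidase, which turns spermine back into spermidine, differed by -0.04 (SE 0.05, adjusted p = 0.65) at O12282 and 0.03 (SE 0.07, adjusted p = 0.80) at A_72_P004801.

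Counted together, 8 of the 31 probes outside OAZ3 passed the line test, all higher in the high RFI line and all of SAT1 or ODC1. Among all probes 16.4% passed, and 9.85% were lower. The count over the members is not 8 independent genes, since 7 probes read SAT1. The median difference of the 31 probes was 0.02, against -0.03 over all probes.

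**Figure D4:**
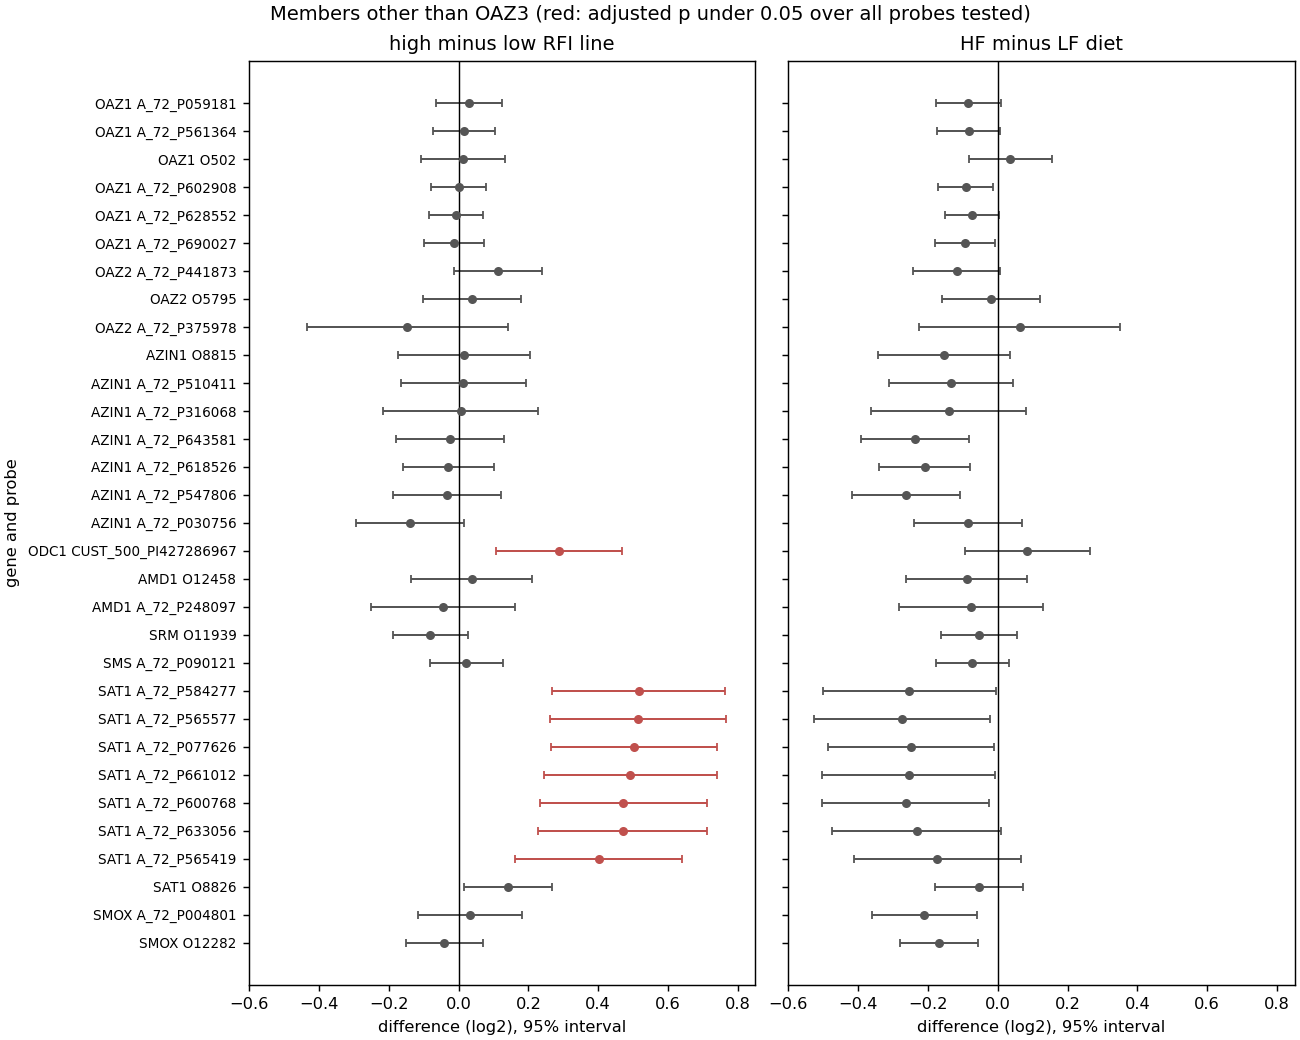
Difference between lines (left) and between diets (right) on the x axis (log2, with the 95% interval) for the 31 probes of members other than OAZ3, grouped by gene on the y axis; red marks an adjusted p under 0.05 over all probes tested. The 7 SAT1 probes and the ODC1 probe are red on the left, and none is red on the right.

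For diet, the values lay mostly below 0 without passing the test. HF minus LF was negative at 30 of the 34 probes, and at 28 to 31 of them under other scalings, against a median of 0.00 over all probes. An unadjusted p under 0.05 (limma) was reached by 12, and by 5513 of all 42125 probes. The 12 are not independent, since all were probes of SAT1, AZIN1, OAZ1 or SMOX. The lowest adjusted p was 0.10, at A_72_P547806 of AZIN1, with a difference of -0.26 (SE 0.08). The 7 AZIN1 probes ran from -0.26 to -0.09, the SMOX probes were at -0.17 and -0.21 (SE 0.05 and 0.07, adjusted p = 0.14 and 0.19), and the 8 SAT1 probes ran from -0.27 to -0.05 with adjusted p from 0.32 upward. ODC1 stood at 0.08 (SE 0.09, adjusted p = 0.77) and OAZ1 at -0.09 to 0.04.

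No probe of the 34 passed the interaction of line and diet, and 0 had an unadjusted p under 0.05. The same test called 0 of the 42125 probes, or 0%, with 1875 at an unadjusted p under 0.05. The largest interaction among the probes outside OAZ3 was -0.55 (95% interval -1.12 to 0.03) at the dim OAZ2 probe A_72_P375978.

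Genes around the pathway were read from 4 lists of 40 genes, of which 25 had a kept probe. Of their 63 probes 14 passed the line test, 6 higher and 8 lower, in 6 genes, against 6.57% higher and 9.85% lower among all probes. GATM, which joins arginine and glycine on the way to creatine and releases ornithine, was higher in the high RFI line at 6 of 8 probes, by 0.38 to 0.95. The 0.95 belongs to A_72_P585161, which was well above background in 3 low RFI and 16 high RFI pigs and so was kept mainly through the high RFI line. The other 5 differed by 0.38 to 0.53. At O9294 of GATM, low RFI pigs ran from -3.29 through a median of -2.41 to -1.66 and high RFI pigs from -2.79 through -2.00 to -0.72, a difference of 0.45 (SE 0.12, adjusted p = 0.0095). SLC7A2, a carrier of arginine and ornithine, had probes that disagreed, at -0.43 (adjusted p = 0.0081) for A_72_P077491 and 0.04 (adjusted p = 0.76) for O1139. ARG1 and ARG2, the arginases that make ornithine, and OAT, ornithine aminotransferase, did not pass, with values of 0.81, 0.15 to 0.30 and 0.09 to 0.23.

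In the methionine cycle and the salvage of methylthioadenosine, the by-product of spermidine and spermine synthesis, 5 of 18 probes passed, 3 of them of APIP, and all were lower in the high RFI line, as were 9.85% of all probes. APIP, a dehydratase of the salvage route, was lower at 3 of 3 probes, by -0.47 to -0.37 (adjusted p from 0.00034 to 0.0048). At O2286 of APIP, low RFI pigs ran from 4.26 through a median of 4.85 to 5.54 and high RFI pigs from 3.63 through 4.56 to 5.37. AHCY, which clears S-adenosylhomocysteine, was lower at 2 of 3 probes, by -0.19 at each (SE 0.04 and 0.05).

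Among transport and back-conversion genes 1 of 9 probes passed the line test (limma), where 16.4% of all probes did. It was O11985 of the lysosomal polyamine exporter ATP13A2, at -0.17 (SE 0.05, adjusted p = 0.013), whereas the other ATP13A2 probe was at -0.13 (adjusted p = 0.11). EIF5A, the protein that receives hypusine made from spermidine, passed at O1929 with -0.15 (SE 0.04, adjusted p = 0.0071) and not at A_72_P268869 with -0.03 (adjusted p = 0.80). DHPS, which starts that modification, was at -0.08 (adjusted p = 0.35). None of the 63 probes passed for diet (0.42% of all probes did). An unadjusted p under 0.05 was reached by 3 of them, and by 5513 of all 42125 probes.

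Markers of cells in the muscle also moved with the line. Leukocyte markers were higher in the high RFI line at 7 of 13 probes (6.57% of all probes were), 4 of LYZ, 2 of CD14 and 1 of CSF1R, by 0.30 to 1.68, whereas CD3E, PTPRC and CD68 did not pass. Their summed level on a linear scale ran from 20.7 to 28.8 in low RFI pigs and from 20.8 to 55.3 in high RFI pigs. The pig at 55.3, replicate 6 of the HF pigs of the high RFI line, was also the pig with the SAT1 level of 3.22, and the next leukocyte sum was 31.2. Without this pig, a choice made after seeing the data, the 7 SAT1 probes differed by 0.34 to 0.44 (adjusted p from 0.0016 to 0.021) and ODC1 by 0.27 (adjusted p = 0.035).

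Of the other markers, FABP4 was higher at 8 of 8 probes and no other of the 6 adipocyte genes passed. COL1A1 gave 2 of the 22 fibroblast probes, SLC4A1 gave 1 of the 3 red blood cell probes, and endothelial genes gave 0 of 12, with 0 at an unadjusted p under 0.05. Muscle fibre genes were lower in the high RFI line at 19 of 74 probes (9.85% of all probes were). These were probes of CKM, MYH2, MYH4, MYLPF and TNNT3, whereas no probe of ACTA1, MYH1, MYH7 or DES passed. The summed level of the muscle fibre genes ran from 8378 to 12001 in low RFI pigs and from 7737 to 11015 in high RFI pigs. The part of these shifts in the SAT1, ODC1 and OAZ3 results was not tested.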

How the data were processed

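Longissimus RNA of 48 pigs was hybridised to 1-colour Agilent arrays. The authors deposited scanner files of Feature Extraction with processed spot intensity, and a table of log2 values that equals the log2 median spot signal minus each array's median (34472 rows, each within 0.001). The submitters' notes name R 2.10.0. The main values were log2 of the deposited processed intensity minus the array mean over kept probes, as in the study's methods. Spots marked as outliers were dropped and repeated probes were averaged. All 42125 probes were fitted in limma 3.58.1 (R 4.3.3) with 4 group means, and p-values were adjusted by Benjamini-Hochberg (threshold 0.05). For the line contrast, data were simulated with independent probes, of which 200 of 41957 were raised in the high RFI line. There, 76% of changes of 0.5 and 96% of changes of 1 (log2) were recovered, and 5.59% and 4.95% of calls were false. In the real data 16.4% of probes were called, so these shares are not the power of the line test here. Levels and counts were summarised in Python 3.11.15. Gene symbols came from the files and, by accession, from RefSeq (Sscrofa11.1), used for names and gene order only. Every kept member probe is named, with pathway and marker genes from lists, the nearest genes to OAZ3 with a kept probe (up to 3 on each side, 1 of them not reported here) and the 8 symbols most like it. Members and lists were chosen with earlier results of these data known. Alternatives covered scaling, background, filters, slide and scan day. The number of pigs limits the precision.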

Additional observations from a re-analysis of the deposited data

How the results depend on the processing

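Between 8 and 9 member probes outside OAZ3 were called between the lines under the 3 other scalings, the normexp background and both other filters. The same held with the outlier spots kept, slide or scan day as a block and the deposited table. These fits held 31 such probes, but 30 when probes had to be above background on all 48 arrays and 29 in the deposited table. Among all probes, the share called in these fits was lowest with no filter on dim probes, at 3874 of 60305. It was highest with slide as a block, at 8416 of 42125. Within a single scan day, with fewer arrays in each fit, the counts were 0 and 0, and those of the other pathway genes, 14 in all, were 0 and 6. The same fits called 1300 and 944 of all 42125 probes. The SAT1 probe A_72_P077626 then differed by 0.56 (adjusted p = 0.11) and 0.44 (adjusted p = 0.090), and ODC1 by 0.32 and 0.25. With slide as a block O8826 of SAT1 also passed, at 0.14. The normexp background moved OAZ3 to 0.94 at A_72_P437459, 0.76 at O3277 and A_72_P619999 to 0.23. In the deposited table O3277 stood at 1.17 and A_72_P619999 at 0.30, and A_72_P437459 was not in it. The cause was not tested. No member probe passed for diet or for the interaction under any alternative run. The signs of some values turned, and of these 1 passed the test, OAZ1 (A_72_P628552) at 0.11 under quantile normalization (adjusted p = 0.027). OAZ1 stood at 0.024 under normexp, 0.0056 with probes above background on all 48 arrays and 0.044 within scan day 1. On scan day 2 AMD1 stood at -0.015. On scan day 1 SMS stood at -0.013, SMOX at 0.0031 and AZIN1 at -0.057, and AZIN1 at -0.030 in the deposited table. Other probes of a gene had the opposite sign to its brightest for OAZ1 (0.031, 0.016 and 0.013), OAZ2 (-0.15), AMD1 (-0.045), SMOX (0.033) and AZIN1 (-0.14, -0.032, -0.030 and -0.024). No paired analysis was possible because the labels give every sample the same replicate number. At A_72_P437459 and O3277, OAZ3 signal was not well above background in 18 and 16 of the 48 pigs, where the level is imprecise. In replicate 9 of the HF pigs of the low RFI line, the shared sequence read -6.30 at A_72_P437459 and -2.08 at O3277.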
